A study of Homo sapiens with 7 samples.

Results

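HOX genes encode homeodomain transcription factors that give cells of the embryo their place along the body axis, and several of them remain active in blood stem and progenitor cells. This account covers those of the 4 human clusters HOXA, HOXB, HOXC and HOXD for which the array annotation lists at least 1 probe set (a group of probes read as a single value) that names no other gene. Of 38 HOX genes listed, 28 were measured in this way, with 44 probe sets, among 19775 genes and 54675 probe sets in all. They comprise 1 gene of HOXA (HOXA2), all 10 of HOXB (HOXB1 to HOXB9 and HOXB13), all 9 of HOXC (HOXC4, HOXC5, HOXC6 and HOXC8 to HOXC13) and 8 of HOXD (HOXD1, HOXD4 and HOXD8 to HOXD13). The other 10, namely HOXA3, HOXA4, HOXA5, HOXA6, HOXA7, HOXA9, HOXA10, HOXA11, HOXA13 and HOXD3, had no probe set of their own in the annotation used and were not analysed here. HOXD3 was named only together with HOXD4 and a further gene, at 3 probe sets that were left out.

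The study profiled gene expression in established cell lines of Hodgkin lymphoma (HL), a tumour of Hodgkin/Reed-Sternberg cells, which mostly derive from B-cells that have lost much of their B-cell program. The 7 HL cell lines were L-428, L-540, L-1236, HDLM-2, KM-H2, SUP-HD1 and U-HO1, and the labels name no treatment. Each was represented by 1 Affymetrix HG U133 Plus 2.0 array of total RNA, so no difference between lines has a replicate error and no test was made. The methods name 2 laboratories as sources of the arrays without assigning the lines to them, so that laboratory and line cannot be told apart.

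HOX genes lie in their clusters in the order of their paralogue group number, and they are switched on in that order in time and along the body axis, with low numbers towards the head. Their proteins bind DNA together with TALE homeodomain cofactors of the PBX and MEIS families. Trithorax proteins such as KMT2A keep active HOX genes on, and polycomb proteins keep silent ones off. In blood, progenitors carry high levels of many HOXA and HOXB genes that fall as cells mature, and misplaced HOX activity is known from several leukaemias.

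Values are log2 signal levels, on which a step of 1 is a doubling. Because probe sets differ in how well they bind, a level was compared only with the level of the same probe set in another line, or with the background of its array. Background was the 95th percentile of 107 probe sets of olfactory receptors, genes of the sensory neurons of the nose. It was 4.86 in HDLM-2, 4.84 in KM-H2, 5.59 in L-1236, 4.75 in L-428, 4.51 in L-540, 4.49 in SUP-HD1 and 4.59 in U-HO1, so that L-1236 had the least room for low genes. L-1236 was also the highest line for 9 of 28 HOX genes, against 22.9% of all genes (11.8% to 14.4% for the other lines). U-HO1 stood apart in 18S ribosomal RNA signal, at 11.12 against 5.23 to 7.06 in the other lines, and in the 3′ minus 5′ signal of ACTB, at 2.11 against 0.06 to 0.54. The part of these array properties in the HOX values was not tested beyond leaving out both lines. Of 6 Hodgkin/Reed-Sternberg cell genes, 5 or 6 were above background in every line, against 43.5% to 58.8% of all genes per line. TNFRSF8 (CD30) was at 4.36 in SUP-HD1, below background, to 10.99 in L-540, and the chemokine CCL17 at 6.64 in L-540 to 13.07 in HDLM-2. Of 5 B-cell genes measured, 0 were above background in all lines and 3 in some, namely PAX5 in 6 lines (4.6 in L-428 to 8.18 in U-HO1), CD22 in 5 (4.26 in U-HO1 to 6.81 in HDLM-2) and CD79A in 3. Of 6 fibroblast or stroma genes, 1 (COL1A1) was above background in all lines, 3 in 1 line each and COL3A1 and LUM in none, and 0 differed by 2 or more. Over all genes, 73.3% were above background in at least 1 line, 34.6% in all lines, and 27.1% differed by 2 or more.

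Promoter windows of 300 bases, from 250 before to 50 after the RefSeq start on GRCh38.p14, were in the sequence table for 20 of the 38 HOX genes and for 11 of the 28 measured. The ones shown belong to neighbours whose levels are described below. HOXC4 and HOXC5 share a single window, because their RefSeq records, and that of HOXC6, begin at the same base (chr12:54016638-54016937, plus strand). HOXD10 (chr2:176116528-176116827, plus strand) and HOXD11 (chr2:176107030-176107329, plus strand) were both above background in L-1236 alone. Capitals mark matches, on either strand, to GGGCGG (reverse CCGCCC), the GC box, and to CACGTG, an E-box that reads the same on both strands. TATAAA (reverse TTTATA), the TATA box, was also searched and was in none of these windows, and no match shown overlaps another.
HOXC4 and HOXC5: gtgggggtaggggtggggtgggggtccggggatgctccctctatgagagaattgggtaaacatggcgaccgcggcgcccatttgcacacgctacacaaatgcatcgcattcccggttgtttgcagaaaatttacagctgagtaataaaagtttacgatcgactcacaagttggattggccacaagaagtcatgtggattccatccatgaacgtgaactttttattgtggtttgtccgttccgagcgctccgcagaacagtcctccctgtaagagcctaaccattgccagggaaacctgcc
HOXD10: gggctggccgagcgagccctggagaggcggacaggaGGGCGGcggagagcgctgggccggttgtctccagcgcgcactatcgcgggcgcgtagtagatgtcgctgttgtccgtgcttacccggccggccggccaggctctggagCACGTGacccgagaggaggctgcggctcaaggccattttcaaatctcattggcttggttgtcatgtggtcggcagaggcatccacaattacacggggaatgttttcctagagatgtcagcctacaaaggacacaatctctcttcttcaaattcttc
HOXD11: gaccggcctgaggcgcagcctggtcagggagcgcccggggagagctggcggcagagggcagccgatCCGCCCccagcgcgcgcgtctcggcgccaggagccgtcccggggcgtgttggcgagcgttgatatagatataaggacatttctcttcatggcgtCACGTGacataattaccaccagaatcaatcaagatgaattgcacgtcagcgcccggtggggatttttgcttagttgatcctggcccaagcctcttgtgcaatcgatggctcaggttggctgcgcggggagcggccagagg

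The HOXC4 and HOXC5 window held none of the 3 motifs and 15 CG pairs, against a median of 14 over all 35116 promoters. HOXD10 had 1 GGGCGG, 1 CACGTG and 23 CG pairs, and HOXD11 had 1 GGGCGG, 1 CACGTG and 27 CG pairs. Of the 8 HOXD windows, 5 held both motifs (HOXD1, HOXD3, HOXD10, HOXD11 and HOXD13), and HOXD13 alone held TATAAA. Over all promoters, GGGCGG was in 45%, CACGTG in 7.26% and TATAAA in 11.5%. The windows of HOXD4, HOXD8 and HOXD12 held none of the motifs, with 4, 34 and 19 CG pairs. These matches describe the letters and show no binding.

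HOX genes were mostly patchy across the HL cell lines. Of the 28 measured, 24 (85.7%) were above background in at least 1 line, against 73.3% of all genes. However, only 3 (10.7%) were above it in all 7 lines, namely HOXB4, HOXB9 and HOXC4, against 34.6% of all genes. In between lay 21 HOX genes (75%), above background in 1 to 6 lines, against 38.7% of all genes. The 4 genes below background throughout were HOXA2, HOXC12, HOXD4 and HOXD12. Among 82 olfactory receptor genes, read in the same way, 18 (22.0%) were above background in at least 1 line and 0 in all lines.

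Differences between lines were large for many HOX genes. With levels below background raised to it, 14 of 28 (50%) differed by 2 or more between their highest and lowest line, a 4-fold difference in signal, against 27.1% of all genes. They were HOXB1, HOXB2, HOXB3, HOXB6, HOXB7, HOXB8 and HOXB9, then HOXC4, HOXC5, HOXC6, HOXC9 and HOXC11, and HOXD11 and HOXD13. The median difference was 1.92 over the HOX genes and 1.27 over all genes. The only estimate of technical spread at hand was the SD among different probe sets of a gene, which was 0.58 when pooled over 5050 genes. This SD took in only probe sets whose mean level exceeded the mean background of the arrays. Among HOX genes, HOXB7, HOXB9 and HOXB13 alone entered it, so the SD may be too narrow for low levels. By line it was 0.72 in L-1236, 0.89 in U-HO1 and 0.44 to 0.49 in the others. The pooled SD is therefore too narrow for L-1236 and U-HO1. Without L-1236 and U-HO1, 8 HOX genes (28.6%) differed by 2 or more, against 16.6% of all genes, and these were HOXB2, HOXB7, HOXB9, HOXB13, HOXC4, HOXC6, HOXC9 and HOXC11. No HOX gene had its highest line 2 or more above the next line, a pattern of 1.9% of all genes. HOXB7 alone (3.57% of the 28) had its lowest line 2 or more below the next, against 0.845% of all genes. That gap, with levels raised to background, was 2.12, and it was 1.88 with the mean of all probe sets, 1.97 with each array minus its median and 1.02 with background at the 99th percentile, each under 2.

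**Figure D1:**
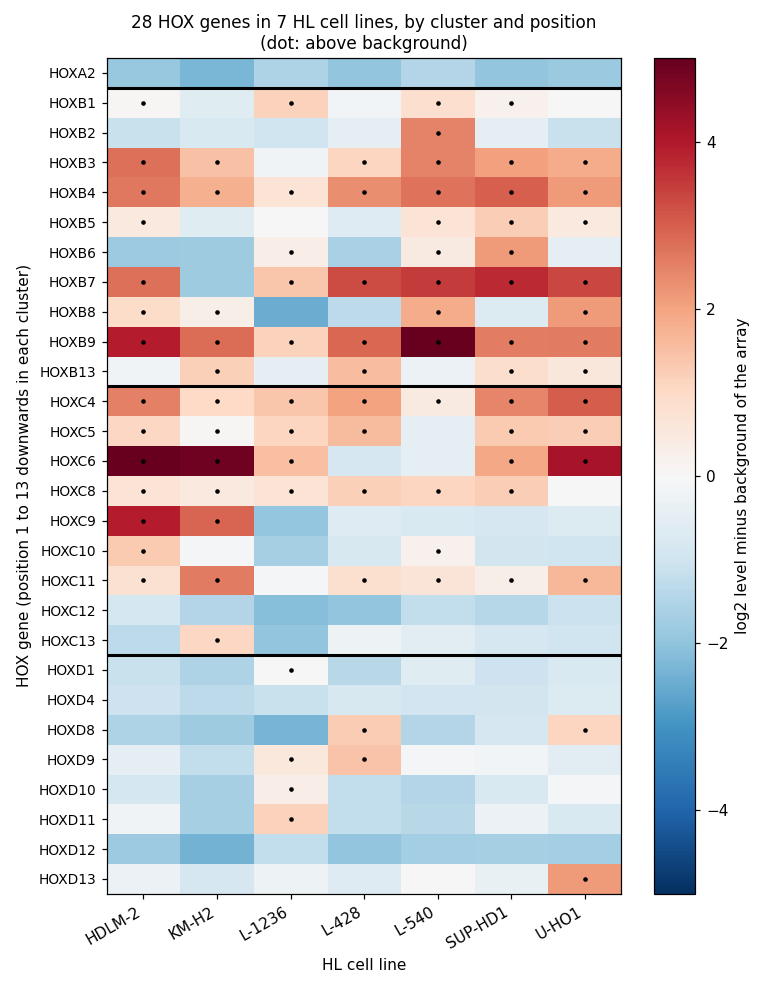
Log2 level minus the background of the array (colour) for 28 HOX genes (rows, by cluster and position from low to high group number) in 7 HL cell lines (columns), with a dot where the level was above background. HOXB and HOXC rows carry most dots, HOXD rows have dots in L-1236, L-428 and U-HO1, and the row of HOXA2 has none.

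Every line had a similar number of HOX genes above background, but not the same ones. The count was 14 in HDLM-2, 12 in KM-H2, 13 in L-1236, 11 in L-428 and 13 in each of L-540, SUP-HD1 and U-HO1. In shares, HOX genes above background were 39.3% to 50% per line, against 43.5% to 58.8% of all genes. L-1236 was the line where the HOX share, 46.4%, exceeded the share of all genes, 43.5%. Counting only levels above background by more than the SD of 0.58, the numbers were 12 in HDLM-2, 9 in KM-H2, 9 in L-1236, 11 in L-428, 10 in L-540, 11 in SUP-HD1 and 11 in U-HO1. Of 196 values, 1 per gene and line, 89 were above background and 73 by more than the SD, while 44 lay within the SD of background on either side. Any given HOX gene lying that close could therefore fall on either side. Because the SD leaves out probe sets of low mean level, this may hold for further values too. Between lines, the number of the 28 genes on the same side of background went from 14 for L-1236 and U-HO1 to 23 for HDLM-2 with L-540 and for HDLM-2 with SUP-HD1. The same count was not made over all genes, so it cannot be read as particular to HOX genes. L-1236 and U-HO1 were also the arrays that stood apart in background and in RNA signals.

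**Figure D2:**
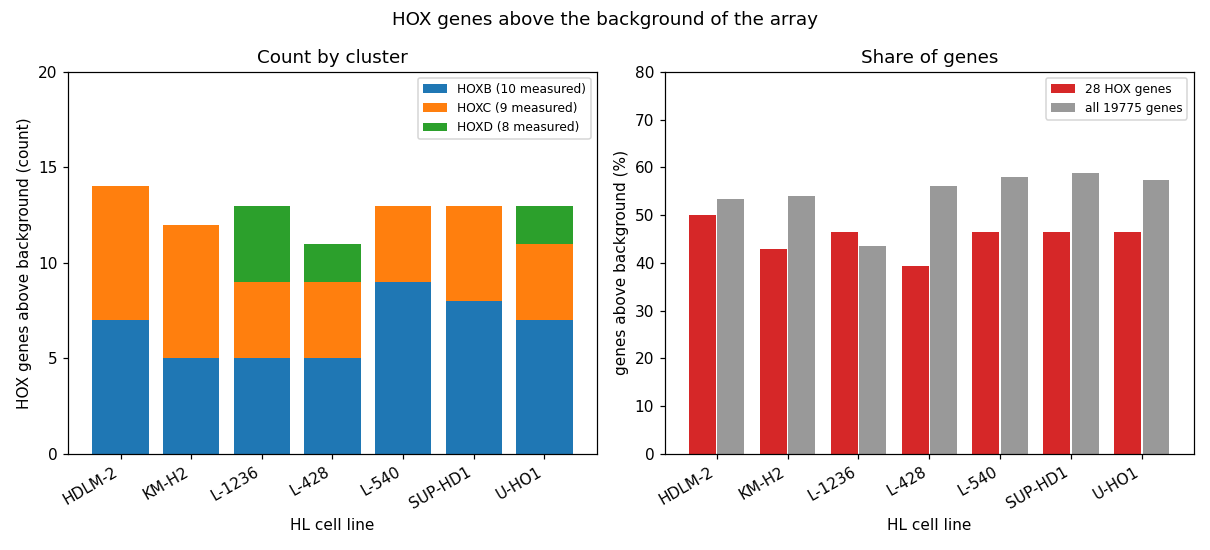
Left, number of HOX genes above background in each HL cell line, stacked by cluster (HOXA2 was below it in all lines). Right, share in percent of the 28 HOX genes and of all 19775 genes above background. The HOX share is below that of all genes in 6 lines and above it in L-1236, and HOXD genes are above background only in L-1236, L-428 and U-HO1.

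By cluster, all 10 HOXB genes were above background in at least 1 line, 8 of 9 HOXC genes, 6 of 8 HOXD genes and not the single HOXA gene. Over all genes the share was 73.3%, and the HOXD share lay near it. HOXB had 9 genes above background in L-540, 8 in SUP-HD1, 7 in HDLM-2 and in U-HO1, and 5 in each of KM-H2, L-1236 and L-428. HOXC had 7 in HDLM-2 and in KM-H2, 5 in SUP-HD1 and 4 in each of the other lines. HOXD had 4 in L-1236, 2 in L-428, 2 in U-HO1 and 0 in HDLM-2, KM-H2, L-540 and SUP-HD1. Without L-1236, 3 HOXD genes were above background in at least 1 line, and without L-1236 and U-HO1 there were 2. Shares also differed by position in the cluster. In HOXC, the central genes (groups 4 to 8) were above background at 24 of 28 gene and line combinations (85.7%), and the posterior genes (groups 9 to 13) at 11 of 35 (31.4%). In HOXB, the share was 52.4% for the 3 anterior genes (groups 1 to 3), 68.6% for the 5 central and 78.6% for the 2 posterior ones. In HOXD it was 14.3% in each of these zones, with 1 anterior, 2 central and 5 posterior genes measured. Of all genes, 43.5% (L-1236) to 58.8% (SUP-HD1) were above background per line, a span that holds the share of the anterior HOXB genes. Each HOX gene is counted once in every line, so the shares by position rest on few genes.

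HOXA2, which patterns the hindbrain and the branchial arches, was the only HOXA gene measured. Its levels ran between 2.51 and 4.05, below background in all 7 lines.

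In the anterior part of HOXB, HOXB1, a hindbrain gene, was at 4.93 in HDLM-2, 4.23 in KM-H2, 6.75 in L-1236, 4.6 in L-428, 5.34 in L-540, 4.72 in SUP-HD1 and 4.59 in U-HO1. It was above background in HDLM-2, L-1236, L-540 and SUP-HD1, in HDLM-2 by 0.07 and in SUP-HD1 by 0.23, while its other probe set was below background in all lines. HOXB2, also active in the hindbrain, was at 7.0 in L-540 and below background elsewhere, at 3.73 in HDLM-2, 4.08 in KM-H2, 4.58 in L-1236, 4.29 in L-428, 4.01 in SUP-HD1 and 3.49 in U-HO1. The background of L-540 was 4.51, the HOXB2 difference with levels raised to background was 2.51, and the gene has a single probe set. HOXB3, a gene of haematopoietic progenitors, was at 7.63 in HDLM-2, 6.31 in KM-H2, 5.43 in L-1236, 5.84 in L-428, 7.0 in L-540, 6.53 in SUP-HD1 and 6.43 in U-HO1. L-1236 was the only line below background, by 0.16. The other HOXB3 probe set was above background in KM-H2, L-540 and SUP-HD1, so that the probe sets were on the same side in 4 of 7 lines.

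Among the central HOXB genes, HOXB4, whose forced expression expands blood stem cells in mice, was at 7.49 in HDLM-2, 6.63 in KM-H2, 6.27 in L-1236, 7.08 in L-428, 7.22 in L-540, 7.49 in SUP-HD1 and 6.73 in U-HO1. It was above background in all 7 lines, with a difference of 1.22. HOXB5, which marks long-term blood stem cells in mice, was at 5.34 in HDLM-2, 4.23 in KM-H2, 5.59 in L-1236, 4.10 in L-428, 5.19 in L-540, 5.72 in SUP-HD1 and 5.09 in U-HO1. It was above background in HDLM-2, L-540, SUP-HD1 and U-HO1, by 0.48 in HDLM-2 and 0.50 in U-HO1, and equal to it in L-1236. HOXB6, a gene of the lateral mesoderm in mice, was at 6.62 in SUP-HD1, 5.91 in L-1236 and 4.97 in L-540, and below background at 3.05 in HDLM-2, 3.08 in KM-H2, 3.12 in L-428 and 4.11 in U-HO1. Its other probe set was below background in all 7 lines, at 2.97 to 3.55, so the HOXB6 difference of 2.03 rests on a single probe set.

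HOXB7, a proliferation gene in several tumours, was above background in every line but 1. It was at 7.63 in HDLM-2, 6.96 in L-1236, 8.01 in L-428, 7.99 in L-540, 8.20 in SUP-HD1 and 7.94 in U-HO1, and at 3.08 in KM-H2. KM-H2 was 3.88 below the next line and below its background of 4.84. All 3 HOXB7 probe sets put KM-H2 below background, the others at 4.38 and 3.0, and the other 6 lines above it. HOXB8, which blocks myeloid differentiation when forced in mouse progenitors, was at 5.78 in HDLM-2, 5.14 in KM-H2, 6.35 in L-540 and 6.72 in U-HO1, and below background at 3.10 in L-1236, 3.43 in L-428 and 3.82 in SUP-HD1. Its other probe set was below background in all lines, and HOXB7 and HOXB8 were on the same side of background in 3 of 7 lines although they are neighbours.

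Of the posterior HOXB genes, HOXB9, which acts with its paralogues in the mammary gland, was at 8.80 in HDLM-2, 7.63 in KM-H2, 6.75 in L-1236, 7.63 in L-428, 9.64 in L-540, 7.03 in SUP-HD1 and 7.18 in U-HO1. It was above background in all 7 lines, and L-540 was the highest at both probe sets. The other probe set gave 4.93 in U-HO1, above its background of 4.59, and 5.56 in L-1236, below its background of 5.59. HOXB13, a prostate gene that binds DNA with the androgen receptor, was at 4.69 in HDLM-2, 6.02 in KM-H2, 5.15 in L-1236, 6.31 in L-428, 4.22 in L-540, 5.38 in SUP-HD1 and 5.17 in U-HO1. At the other probe set KM-H2, L-428 and SUP-HD1 were at 6.08, 6.67 and 6.47, and the other 4 lines were below background at 4.23 to 4.36. The U-HO1 level of HOXB13 was therefore above background at 1 of its 2 probe sets.

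**Figure D3:**
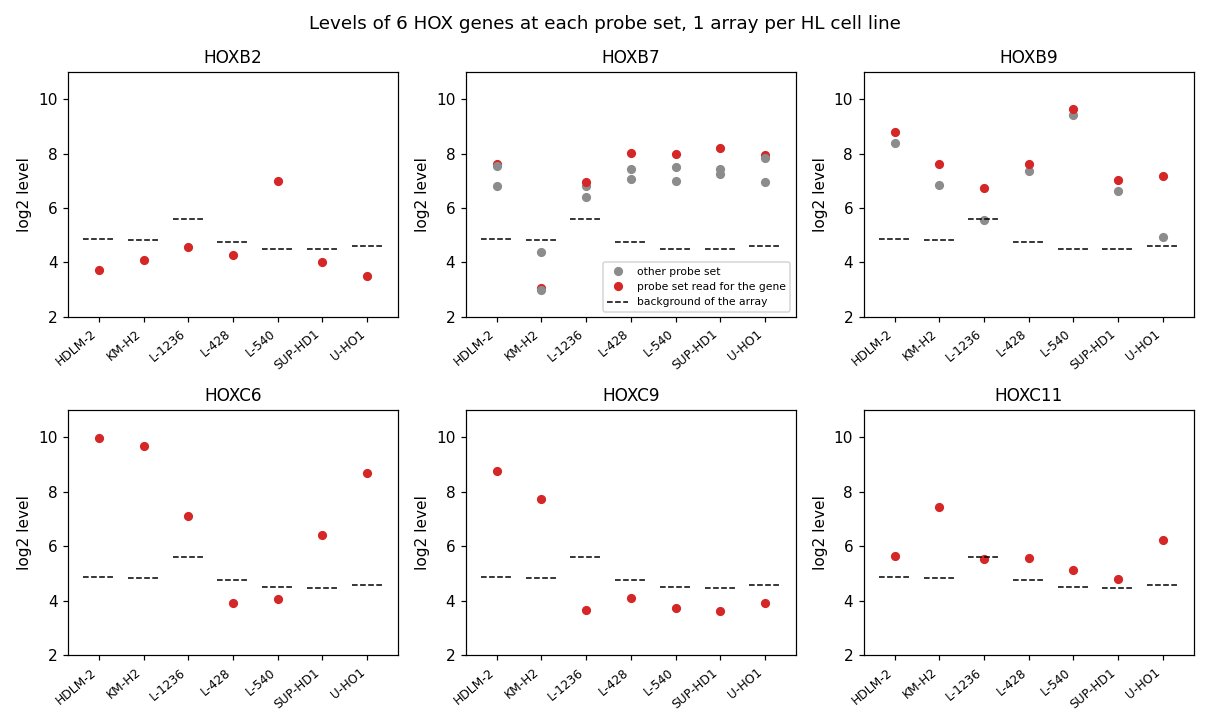
Log2 level (y axis) of 6 HOX genes at each of their probe sets in 7 HL cell lines (x axis, 1 array each), with the probe set read for the gene in red, other probe sets in grey and the background of each array as a dashed line. HOXB7 is below background in KM-H2 at all 3 probe sets, HOXB2 is above it in L-540 only, and HOXC9 is above it in HDLM-2 and KM-H2 only.

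In HOXC, each gene was read by a single probe set, so no second reading was at hand. HOXC4, which activates the gene of the antibody-diversifying enzyme AID in B-cells, was at 7.38 in HDLM-2, 5.85 in KM-H2, 6.96 in L-1236, 6.75 in L-428, 4.97 in L-540, 6.94 in SUP-HD1 and 7.61 in U-HO1. L-540 was the lowest, 0.46 above its background, and 0.88 below the next line, KM-H2. HOXC5, which shares its RefSeq start with HOXC4, was at 5.91 in HDLM-2, 4.91 in KM-H2, 6.67 in L-1236, 6.35 in L-428, 4.08 in L-540, 5.80 in SUP-HD1 and 5.82 in U-HO1. Again L-540 and KM-H2 were the lowest lines, L-540 below background and KM-H2 0.07 above it. Over the 7 lines the levels of HOXC4 and HOXC5 had r = 0.82 and rho = 0.57, given as a description over 7 arrays that share their normalization. Whether a probe set of either gene also binds transcripts of the other was not tested.

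HOXC6, a gene of thoracic and limb-level identity, had the largest difference of all 28 HOX genes. It was at 9.99 in HDLM-2, 9.70 in KM-H2, 8.70 in U-HO1, 7.10 in L-1236 and 6.42 in SUP-HD1, and below background at 3.90 in L-428 and 4.08 in L-540. The difference was 5.48 with levels raised to background. HOXC8, a gene of thoracic skeleton and motor neurons, was at 5.55 in HDLM-2, 5.34 in KM-H2, 6.27 in L-1236, 5.95 in L-428, 5.60 in L-540, 5.72 in SUP-HD1 and 4.59 in U-HO1. U-HO1 was equal to its background, the other 6 lines were above theirs, and the difference of 1.68 was under 2.

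Of the posterior HOXC genes, HOXC11 was above background in most lines and the others in 2 lines or fewer. HOXC9, which sets thoracic motor neuron identity, was at 8.78 in HDLM-2 and 7.75 in KM-H2, and below background at 3.66 in L-1236, 4.10 in L-428, 3.73 in L-540, 3.63 in SUP-HD1 and 3.90 in U-HO1. Its difference of 4.29 was the next largest after HOXC6, and KM-H2, the lower of the lines with signal, had a background of 4.84. HOXC10, a gene of the lumbar level and hindlimb, was at 6.16 in HDLM-2 and 4.71 in L-540, and below background at 4.73 in KM-H2, 3.92 in L-1236, 3.96 in L-428, 3.55 in SUP-HD1 and 3.59 in U-HO1. HOXC9 and HOXC10 had r = 0.84 and rho = 0.82 over the 7 lines, with HDLM-2 highest for both. HOXC11, also a lumbar and hindlimb gene, was at 5.64 in HDLM-2, 7.44 in KM-H2, 5.53 in L-1236, 5.56 in L-428, 5.14 in L-540, 4.79 in SUP-HD1 and 6.24 in U-HO1. It was above background in every line but L-1236, which was 0.06 below it, and KM-H2 was the highest.

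HOXC12, the neighbour of HOXC11, ran between 2.76 and 3.98 and was below background in all lines. HOXC13, which controls hair keratin genes, was at 5.89 in KM-H2 and below background elsewhere, at 3.56 in HDLM-2, 3.63 in L-1236, 4.48 in L-428, 3.99 in L-540, 3.63 in SUP-HD1 and 3.59 in U-HO1. KM-H2, the line that lacked HOXB7 signal, was thus also the highest line for HOXC11 and HOXC13.

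HOXD was the quietest of the 3 clusters with more than 1 gene measured. L-1236 held 4 of its 8 gene and line combinations above background, and 3 of these 4 (HOXD1, HOXD9 and HOXD10) were within the SD of 0.58 of that background. HOXD1, the most anterior HOXD gene, was at 5.60 in L-1236, 0.01 above background, and at 3.28 to 3.91 in the other 6 lines, all below background. The other HOXD1 probe set was below background in all lines. HOXD4 ran between 3.55 and 4.46 at the probe set read and was below background in all lines at both of its probe sets. HOXD8 was at 6.01 in L-428 and 5.65 in U-HO1, and below background at 3.31 in HDLM-2, 3.08 in KM-H2, 3.28 in L-1236, 3.03 in L-540 and 3.63 in SUP-HD1. Its difference was 1.52, and it has a single probe set.

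The posterior HOXD genes pattern the limbs and the urogenital tract. HOXD9 was at 6.18 in L-428 and 6.13 in L-1236, and below background at 4.36 in HDLM-2, 3.63 in KM-H2, 4.44 in L-540, 4.36 in SUP-HD1 and 4.01 in U-HO1. Its other probe set was below background in all lines. HOXD10, which sets lumbar motor neuron identity, was at 5.93 in L-1236 and below background at 3.98 in HDLM-2, 3.17 in KM-H2, 3.52 in L-428, 3.03 in L-540, 3.73 in SUP-HD1 and 4.51 in U-HO1. The other 2 HOXD10 probe sets were below background in all lines, and the L-1236 level was 0.34 above background at the probe set read. HOXD11, a gene of the forearm and kidney, was at 6.75 in L-1236 and below background at 4.69 in HDLM-2, 3.17 in KM-H2, 3.52 in L-428, 3.11 in L-540, 4.18 in SUP-HD1 and 3.82 in U-HO1. The background of L-1236 was 5.59, and HOXD11 has a single probe set. HOXD10 and HOXD11 had r = 0.92 and rho = 0.89 over the 7 lines. HOXD12, below background in all lines, had r = 0.92 with HOXD10 and 0.96 with HOXD11. L-1236 was the highest line for each of these genes, and the part of its higher background in these r values was not tested.

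HOXD12 ran between 2.48 and 4.37, below background in all lines, with L-1236 highest. HOXD13, a gene of the digits, was at 6.72 in U-HO1 and below background elsewhere, at 4.57 in HDLM-2, 3.99 in KM-H2, 5.34 in L-1236, 4.10 in L-428, 4.51 in L-540, where it equalled background, and 4.10 in SUP-HD1. Its other probe sets did not show this. U-HO1 was at 4.40 and 3.99 there, below its background of 4.59, while L-1236 was at 5.47 and 5.91, the higher of them above its background of 5.59. Thus which line carried HOXD13 depended on the probe set.

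Neighbouring HOX genes were on the same side of background about as often as genes farther apart in HOXB, at 35 of 63 pair and line combinations (55.6%) against 138 of 252 (54.8%). In HOXC, adjacent genes were on the same side at 34 of 56 (60.7%), against 90 of 196 (45.9%) for genes farther apart. The pairs farther apart include genes such as HOXC4 and HOXC12, above background in all lines and in none. The central HOXC genes were above background at 85.7% of values and the posterior ones at 31.4%. The part of these shares in the HOXC contrast was not tested, and the same count was not made over all genes. In HOXD, where most values were below background, the counts were 35 of 42 (83.3%) against 121 of 154 (78.6%). In HOXB the levels of HOXB3 and HOXB4 had r = 0.75, and those of HOXB5 and HOXB6 r = 0.77, over the 7 lines, while HOXB9 and HOXB13 had r = -0.60.

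Probe sets of the same HOX gene were not always on the same side of background. Of the 13 genes with more than 1 probe set, HOXB7 and HOXD4 had their probe sets on the same side in all 7 lines. The number was 6 lines for HOXB9, HOXB13, HOXD1 and HOXD10, 5 for HOXB5, HOXD9 and HOXD13, 4 for HOXB3 and HOXB6, and 3 for HOXB1 and HOXB8. The signals of HOXB1, HOXB6, HOXB8, HOXD1, HOXD9 and HOXD10 each rest on the probe set with the highest mean. Their other probe sets were below background in all lines.

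Other genes inside the clusters, mainly antisense and long noncoding RNAs, were also read where possible. Of 22 listed, 12 were measured and 6 were above background in at least 1 line, against 73.3% of all genes. In all lines 0 were above it, against 34.6% of all genes, and 2 differed by 2 or more, against 27.1%. EVX1, which belongs to the same list, lies beside HOXA in the RefSeq table and is counted there. PRAC1, a small gene that lies between HOXB9 and HOXB13, was at 8.08 in KM-H2 and 10.14 in L-428, and below background at 2.74 in HDLM-2, 3.06 in L-1236, 2.58 in L-540, 2.97 in SUP-HD1 and 2.97 in U-HO1. KM-H2 and L-428 were also above background at both HOXB13 probe sets, as was SUP-HD1, where PRAC1 was not. HOTAIR, an antisense long noncoding RNA whose record overlaps that of HOXC11, was at 6.87 in KM-H2 and 4.93 in U-HO1, and below background at 3.56 in HDLM-2, 3.17 in L-1236, 2.90 in L-428, 2.46 in L-540 and 2.65 in SUP-HD1. KM-H2 and U-HO1 were the highest lines for HOXC11 too.

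**Figure D4:**
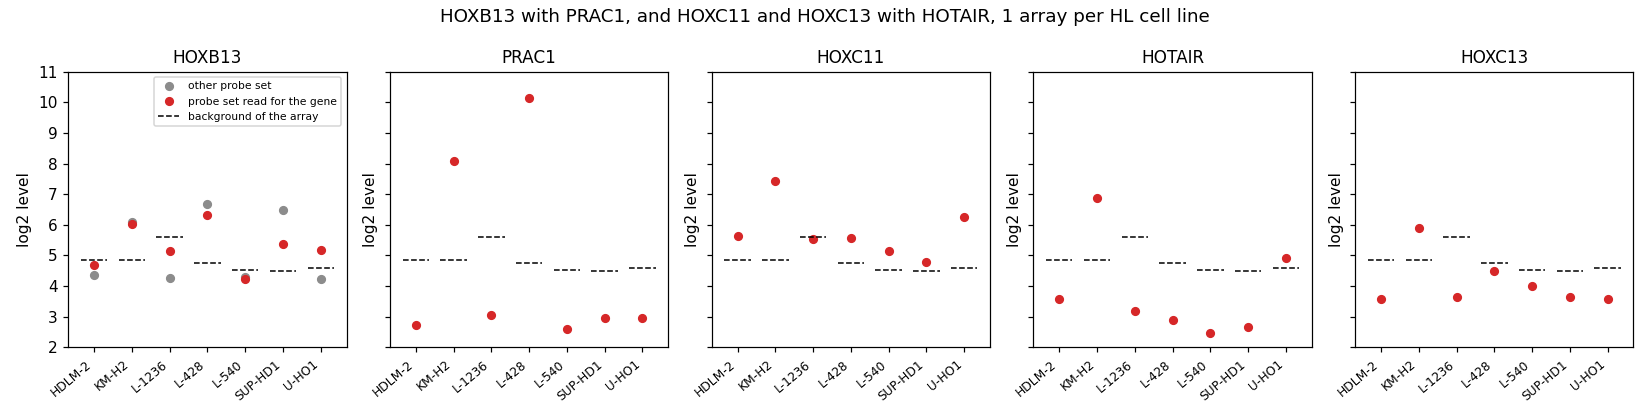
Log2 level (y axis) of HOXB13, PRAC1, HOXC11, HOTAIR and HOXC13 in 7 HL cell lines (x axis, 1 array each), with the probe set read for the gene in red, another probe set in grey and the background of each array as a dashed line. PRAC1 is above background in KM-H2 and L-428, HOTAIR in KM-H2 and U-HO1, and HOXC13 in KM-H2.

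Genes beside the HOX clusters were above background more widely. Of 38 measured protein-coding genes among the 5 nearest on each side of each cluster, 28 (73.7%) were above background in all 7 lines, against 34.6% of all genes, and 13 (34.2%) differed by 2 or more, against 27.1% of all genes. Among them JAZF1, beside HOXA, at 8.60 in SUP-HD1 and 5.90 in U-HO1 and below background in the other 5 lines, and AGPS, beside HOXD, at 6.20 in U-HO1 to 10.10 in L-428, differed most.

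Partners and regulators of HOX proteins were also read. Of 9 TALE cofactors, 8 were measured, 4 (50%) were above background in all lines, against 34.6% of all genes, and 4 (50%) differed by 2 or more, against 27.1% of all genes. MEIS1, which binds DNA with HOX proteins of the posterior groups, was at 7.84 in KM-H2, 7.15 in U-HO1, 5.93 in L-428 and 4.65 in SUP-HD1, and below background at 2.61 in HDLM-2, 4.58 in L-1236 and 2.65 in L-540. PBX4 was at 7.86 in L-540, 5.42 in U-HO1 and 4.91 in KM-H2, and below background at 4.14 in HDLM-2, 4.43 in L-1236, 3.66 in L-428 and 4.27 in SUP-HD1. HDLM-2, L-1236 and L-540, where MEIS1 was below background, had 14, 13 and 13 HOX genes above background. The other lines had 11 in L-428 to 13 in SUP-HD1 and U-HO1, and a link was not tested.

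Of 20 genes for activators of the HOX clusters, all measured, 17 (85%) were above background in all lines, against 34.6% of all genes, and 7 (35%) differed by 2 or more, against 27.1%. KMT2D, a histone methyltransferase, was at 4.79 in SUP-HD1 to 8.22 in U-HO1, and AFF1, a fusion partner of KMT2A in leukaemia, at 6.64 in L-1236 to 9.47 in U-HO1, both above background throughout. Of 18 polycomb genes, 14 were measured, 11 (78.6%) were above background in all lines and 7 (50%) differed by 2 or more, against the same shares of all genes. AUTS2, which joins a variant of polycomb complex 1, was at 10.19 in U-HO1, 9.12 in L-428, 8.68 in HDLM-2, 8.11 in L-1236 and 7.86 in KM-H2, and below background at 3.03 in L-540 and 2.97 in SUP-HD1. L-540 and SUP-HD1 were also the lines with the most HOXB genes above background, 9 and 8 of 10, given as a description over 7 arrays. They had the lowest backgrounds, 4.51 and 4.49, and the largest shares of all genes above background, 57.9% and 58.8%. A link between AUTS2 and the HOXB counts was not tested. CBX7, a chromobox subunit of the canonical form of polycomb complex 1, was at 5.06 in L-428 to 8.63 in HDLM-2, and below background at 5.38 in L-1236.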

How the data were processed

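Total RNA of 7 HL cell lines was measured on Affymetrix HG U133 Plus 2.0 arrays, 1 per line. The authors deposited log2 values made by RMA background correction and quantile normalization. RMA, limma and affy are the tools in the submitters' processing notes, with versions not given in the sources used here. Quantile normalization gives all arrays nearly the same distribution, which hides a change shared by most genes. Values have 2 decimals, range from 1.99 to 14.17 and are not centred. Unused value columns and missing values numbered 0.

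Of 54675 probe sets, the annotation gave 41097 a single gene and 1801 several, and it did not list 11777. Symbols were updated for 41043 through the RefSeq table of GRCh38.p14. A gene was read at its probe set with the highest mean. Background, the difference of 2 (log2) and the pooled SD (13395 probe sets of 5050 genes) are defined with the results. With 1 array per line no test was made, and signal over background limits the precision. Python 3.11.15, numpy 2.4.6, pandas 2.3.3 and matplotlib 3.10.9 were used, and the counting was tested on simulated data.

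Values per line are given for HOX genes above background in at least 1 line, and ranges for the rest. Other lists (TALE cofactors, activators, polycomb, genes inside and beside the clusters, cell type markers) are given as counts, with values for the 2 members that differed most above background. The fibroblast or stroma list, where 0 differed by 2 or more, is given as counts only. Markers named beyond these were chosen after their values were seen. Members and lists were chosen with earlier results of these data known, and the neighbours given with r and the promoters shown were chosen after their values were seen. Promoter sequences are from RefSeq, GRCh38.p14. The alternatives changed the probe set, normalization, background, size of difference and lines.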

Additional observations from a re-analysis of the deposited data

Results flagged for a closer look

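For 6 of 28 HOX genes (21.4%), against 12.3% of all genes, a single line stood apart from the other 6, with a gap to the nearest line that, as a share of the whole range, passed Dixon's 95% critical value. Chance alone flags about 1 in 20 groups.

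HOXB7 in KM-H2 was at 3.08, which was 3.88 below L-1236, the next line, and all 3 HOXB7 probe sets showed it. HOXB2 in L-540 was at 7.0, against 4.58 in L-1236. HOXC13 in KM-H2 was at 5.89, against 4.48 in L-428. HOXD1 in L-1236 was at 5.60, against 3.91 in L-540, with the background of L-1236 at 5.59. HOXA2 in L-1236 was at 4.05, against 3.03 in L-540, and HOXD12 in L-1236 was at 4.37, against 3.05 in HDLM-2, both below the background of L-1236. The part of that higher background in the L-1236 values was not tested.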

How the results depend on the processing

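Of 168 counts recomputed under alternatives that could change them, 22 moved, either by more than 1.5 times or to or from 0. Counts per line with a single other line left out, which can hardly change, are not among the 168. Nor are counts above background with each array minus its median, which shifts level and background alike. Counts per line without both L-1236 and U-HO1 are among them. The 14 HOX genes that differed by 2 or more became 9 with the mean of all probe sets, 7 with background at the 99th percentile, 8 without L-1236 and U-HO1, and 23 at a difference of 1. All 7 of those at the 99th percentile (HOXB2, HOXB7, HOXB9, HOXC4, HOXC6, HOXC9 and HOXC11) were among the 14. The count of 0 HOX genes high in a single line became 2 with quantile normalization applied again (HOXB1 and HOXD11), 1 at the 90th percentile (HOXD11), 1 without L-1236 and U-HO1 (HOXB2), 7 at a difference of 1 and 2 with levels as deposited (HOXB2 and HOXD11). The count of 1 gene low in a single line (HOXB7) became 0 with the mean of all probe sets, each array minus its median and the 99th percentile, where its gap of 2.12 was 1.88, 1.97 and 1.02. It was also 0 without probe sets ending in _x_at or _s_at, where HOXB7 was no longer measured because it has no other kind. HOXB5, HOXC6 and HOXC13 dropped out there for the same reason, so that 6 of 8 HOXB genes measured were above background, against 10 of 10. The 6 HOXD genes above background became 2 without L-1236 and U-HO1, and at the 99th percentile HDLM-2 had 9 and KM-H2 had 7. Apart from the genes dropped, the cause was not tested.

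With each line left out in turn, HOX genes above background in at least 1 line numbered 21 to 24, of them 9 to 10 in HOXB, 7 to 8 in HOXC and 3 to 6 in HOXD (3 without L-1236). Those that differed by 2 or more numbered 11 to 14, those high in a single line 0 to 2 (HOXB9 and HOXC9 without HDLM-2, HOXC9 without KM-H2, HOXB2 without L-1236), and those low in a single line 0 to 1 (0 without KM-H2). HOXA stayed at 0 to 0, and U-HO1 had 12 to 13 HOX genes above background. Of 388 ranges of single HOX genes, not counting the other background percentiles, which cannot change them, 61 moved by more than the SD of 0.58. No paired analysis was possible because the lines were not replicated. Signal over background limits the reading of low HOX genes, most of all in L-1236, with its background of 5.59.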

Other observations

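Markers of other cell types differed between the lines. Of 6 T-cell genes, all were above background in at least 1 line, against 73.3% of all genes. In all lines 1 was above it, against 34.6% of all genes, and 4 differed by 2 or more, against 27.1%. CD247 was at 9.81 in HDLM-2 and 9.90 in L-540, the lines in which MEIS1 was lowest, and below background in the other 5 lines. CD3D was at 8.89 in KM-H2 and 4.65 in L-540 and below background elsewhere. CD2 was at 8.95 in HDLM-2, 7.28 in L-540 and 4.58 in SUP-HD1 and below background elsewhere. GATA3 was above background in all lines, at 8.26 in L-540, its lowest line, to 11.23 in L-428. CD3G was at 4.91 in KM-H2, with a background of 4.84, and below background elsewhere. CD3E was at 4.71 in L-540, with a background of 4.51, and below background elsewhere. Of 5 myeloid genes measured, 3 were above background in KM-H2, 2 in HDLM-2 and 0 or 1 in the other lines, and 2 were below it in all lines. The share of all genes above background was 43.5% to 58.8% per line. ITGAM, a myeloid integrin, was at 7.13 in HDLM-2, 8.22 in KM-H2 and 5.23 in U-HO1 and below background elsewhere. CSF1R, a receptor of macrophages, was at 5.24 in HDLM-2, 6.63 in KM-H2, 7.65 in L-540 and 5.80 in SUP-HD1 and below background elsewhere. The part of these markers in the HOX values was not tested.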
